A study of Mus musculus with 16 samples.

Results

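The rows of Arg2, Ass1, Asl, Cps1, Otc and Aldh18a1 were taken by symbol from the count matrices of single small-intestinal cells of WT and ROBO mice. All 6 genes were among the 24421 listed genes, 5 of them had at least 1 UMI (a unique molecular identifier, which counts 1 captured mRNA molecule once), and 4 of them, Arg2, Cps1, Otc and Aldh18a1, reached the minimum of 50 UMIs set for a ratio. The study compared the stem cell lineage of normal and precancerous intestine at postnatal day 16, shortly before weaning, in untreated outbred mice. ROBO mice carry a Crainbow transgene at the ROSA26 locus that encodes the fusion PTPRK(e1–7):RSPO3(e2–5), the shorter fusion PTPRK(e1):RSPO3(e2–5) and unfused RSPO3, each tied to its own fluorescent protein. Villin-Cre recombines it in the intestinal epithelium from embryonic life on, so a recombined cell carries at most 1 of these products. WT mice carry none of them. The counts do not say which cells had recombined.

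The matrices held 1348 WT cells with 2682127 UMIs and 1249 ROBO cells with 2428435 UMIs, with a median of 1492 and 1610 UMIs per cell. The labels name 8 samples per genotype, but the cell names carry only the genotype and a running number, and no barcode that could be matched between libraries. Each genotype was therefore 1 pooled sample, no test between genotypes was made, and every 95% interval given here covers counting error only.

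Neonatal enterocytes are known as a site of arginine supply, because milk holds little of it. In mitochondria, pyrroline-5-carboxylate synthase turns glutamate towards ornithine, carbamoyl phosphate synthetase makes carbamoyl phosphate, and ornithine carbamoyltransferase joins the products into citrulline, which argininosuccinate synthase and argininosuccinate lyase turn into arginine in the cytosol. Arginases split arginine into ornithine and urea, and intestinal arginase activity is known to appear around weaning, when lactase gives way to sucrase-isomaltase.

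The last steps of arginine synthesis left almost no trace in the matrices. Ass1, which encodes argininosuccinate synthase, was listed at 0 in all 1348 WT and all 1249 ROBO cells. A count of 0 allows up to 0.0112 UMIs per 10000 in WT and 0.0124 in ROBO, taking 3 counts as the limit. Ass1 was not alone at 0, since 38.1% of the listed genes had no UMI in either matrix. Amd1, a broadly used gene of polyamine synthesis, was also at 0 in all cells, so a 0 here limits counted UMIs and not expression. In the GENCODE M21 annotation of GRCm38, Ass1 lies on chromosome 2 (chr2:31470207-31520672, plus strand), and a processed copy of its transcript, Gm5424, lies on chromosome 10 (chr10:62071123-62072362). Gm5424 was also listed at 0 in both matrices.

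The similarity of Ass1 and its copy is shown here because a read from a stretch that both share fits both. Of 1240 aligned bases, 1234 were identical, or 99.5%. The window below was picked as 100 bases with the most differences, and it lies before the last 600 bases of the transcript. In it, bases 631 to 730 of the Ass1 transcript stand against bases 429 to 528 of Gm5424, with the 2 differing bases in capitals.
Ass1: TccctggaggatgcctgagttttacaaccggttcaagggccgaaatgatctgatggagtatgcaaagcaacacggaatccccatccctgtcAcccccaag
Gm5424: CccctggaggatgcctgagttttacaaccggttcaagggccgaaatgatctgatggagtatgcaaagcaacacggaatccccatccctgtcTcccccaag
Of the 75-base words of the Ass1 transcript, 46.9% also occur in Gm5424. In the last 600 bases, where reads of a 3′ library gather, the share was 23.2%. How reads that match both genes were treated upstream is not given in the sources used here, and the part of shared sequence in the 0 was not tested.

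Asl, which encodes argininosuccinate lyase (chr5:130011258-130029247, minus strand), had 8 UMIs in 8 WT cells and 16 UMIs in 15 ROBO cells. None of its 75-base words occurs in another annotated transcript. The levels were 0.0298 UMIs per 10000 (interval 0.0129 to 0.0588) in WT and 0.0659 (0.0377 to 0.107) in ROBO. In mature enterocyte-like cells, defined below, 1 UMI was found in WT and 8 in ROBO. At this depth a difference of Asl between genotypes or cell classes was not detectable.

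Cells were placed in 12 clusters from genes other than the 6 arginine genes and a list of 50 neighbouring pathway genes, so that the clusters were not drawn by the levels reported here. Marker genes named 2 stem cell-like clusters (696 cells), 2 transiently amplifying-like clusters (705 cells), 1 bottom enterocyte-like cluster (175 cells, led by Reg1 and Gsdmc4), 2 middle enterocyte-like clusters (408 cells) and 1 top enterocyte-like cluster (226 cells). A secretory-like (126 cells), an immune-like (47 cells) and an enteroendocrine-like cluster (30 cells) were also named. Cluster 6, with 184 cells led by Atf3, Fosb and Plk3, was left unnamed. The isolates labelled as crypt cells thus also held enterocyte-like cells of the bottom, middle and top classes. The middle enterocyte-like cells fell into cluster 4, led by Cubn and with 42.2 Lct UMIs per 10000, and cluster 8, led by Sis and with 23.6 Sis UMIs per 10000 against 0.15 in cluster 4. Lct encodes lactase, the disaccharidase of suckling, and Sis encodes sucrase-isomaltase, that of the weaned gut. Middle and top enterocyte-like cells together are called mature enterocyte-like, and stem cell-like and transiently amplifying-like cells together crypt-like. Because clusters are cut from the same cells they describe, differences between them are given as descriptions.

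Cps1 encodes carbamoyl phosphate synthetase, which makes the carbamoyl phosphate for citrulline, and lies on chromosome 1 (chr1:67123026-67231259, plus strand). It was measured with 3597 UMIs in 872 WT cells and 3504 UMIs in 805 ROBO cells. Its level was highest in transiently amplifying-like cells, at 18.7 UMIs per 10000 in WT and 24.3 in ROBO, and next in stem cell-like cells, at 16.9 in WT and 14.9 in ROBO. Bottom enterocyte-like cells held 14.8 in WT and 14.4 in ROBO. From there the level was lower in middle enterocyte-like cells, at 6.15 in WT and 5.76 in ROBO, and lowest in top enterocyte-like cells, at 1.88 in WT and 2.47 in ROBO. Both genotypes had the same order of these enterocyte-like classes, and in pooled cells the intervals of the bottom (13.5 to 15.7), middle (5.44 to 6.49) and top (1.73 to 2.81) enterocyte-like levels did not overlap. The stem cell-like interval (15.2 to 16.7) and the bottom enterocyte-like interval overlapped. Which crypt-type class stood highest depended on the clustering, since at a resolution of 1.2 the pooled level was 20.8 in stem cell-like and 13.8 in transiently amplifying-like cells.

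The immune-like cluster, which should lack Cps1, served as a measure of free RNA. After every cell was thinned to 912 UMIs, 19.4% of 36 immune-like cells had a Cps1 UMI (exact interval 8.2 to 36.0%). The share was 15.6% of 154 top enterocyte-like cells, which lay within that wide interval and could not be told apart from free RNA. It was 71.6% of 162 bottom enterocyte-like cells and 38.5% of 340 middle enterocyte-like cells, from unthinned medians of 2516 and 1688 UMIs per cell against 1749 in immune-like cells. Unthinned, 85.7% of bottom, 52.9% of middle and 25.2% of top enterocyte-like cells and 29.8% of immune-like cells had a Cps1 UMI.

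Otc encodes ornithine carbamoyltransferase, which forms citrulline, and lies on the X chromosome (chrX:10252305-10321024, plus strand). It had 448 UMIs in 310 WT cells and 460 UMIs in 298 ROBO cells. Its level was highest in bottom enterocyte-like cells, at 3.37 UMIs per 10000 in WT and 3.96 in ROBO. Transiently amplifying-like cells held 2.13 and 2.34, and stem cell-like cells 1.35 and 1.64. Middle enterocyte-like cells held 1.43 in WT and 1.69 in ROBO, and the pooled top enterocyte-like level was 0.38 (interval 0.20 to 0.67). The pooled bottom enterocyte-like interval, 3.12 to 4.25, lay above that of every other class, while stem cell-like (1.28 to 1.72) and middle enterocyte-like (1.31 to 1.86) cells could not be ordered. Among thinned cells, 35.2% of bottom enterocyte-like and 3.2% of top enterocyte-like cells had an Otc UMI, against 2.8% of immune-like cells.

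Aldh18a1 encodes pyrroline-5-carboxylate synthase, which feeds glutamate into ornithine and proline, and lies on chromosome 19 (chr19:40550257-40588463, minus strand). It had 950 UMIs in 526 WT cells and 1017 UMIs in 543 ROBO cells. Unlike Cps1 and Otc, its level kept up in the villus-type cells, at 5.66 UMIs per 10000 in WT and 5.46 in ROBO in the middle enterocyte-like class. Top enterocyte-like cells held 3.98 and 4.34, and stem cell-like cells 3.50 and 3.93. The pooled intervals of stem cell-like (3.37 to 4.06) and top enterocyte-like (3.51 to 4.97) cells overlapped, as did those of bottom (4.37 to 5.68) and middle (5.07 to 6.08) enterocyte-like cells. The secretory-like level was lower, at 1.5 (1.06 to 2.07), beside 0.88 (0.38 to 1.73) in immune-like cells.

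Sequence upstream of these genes is shown for Otc and Aldh18a1, whose levels differed in order along the enterocyte-like classes. The RefSeq promoter table of GRCm38.p6 matched 3 of the 6 genes, Ass1, Otc and Aldh18a1. Capitals mark matches, on either strand, to TTTAT (read by CDX factors), GATAA (GATA factors) and CAAAG (an HNF4 half-site). The 250 bases before the start of Otc are chrX:10252055-10252304, plus strand, and those of Aldh18a1 are chr19:40588464-40588713, minus strand.
Otc: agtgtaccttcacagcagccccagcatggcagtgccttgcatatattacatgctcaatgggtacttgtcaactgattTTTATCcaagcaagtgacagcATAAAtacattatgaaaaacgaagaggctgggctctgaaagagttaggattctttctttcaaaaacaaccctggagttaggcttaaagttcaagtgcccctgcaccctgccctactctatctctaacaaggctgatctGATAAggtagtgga
Aldh18a1: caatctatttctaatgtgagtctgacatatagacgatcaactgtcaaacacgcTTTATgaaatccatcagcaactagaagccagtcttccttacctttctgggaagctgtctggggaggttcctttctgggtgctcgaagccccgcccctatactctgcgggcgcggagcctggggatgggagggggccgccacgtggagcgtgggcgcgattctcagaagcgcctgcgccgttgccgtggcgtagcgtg
The Otc sequence held 2 matches to TTTAT and 2 to GATAA, of which 1 pair overlaps, and none to CAAAG. The Aldh18a1 sequence held 1 match to TTTAT. Of 32851 promoters of the same length, 37.3% held TTTAT, 22.6% GATAA and 48.6% CAAAG, so these matches are common letters and are given as a description.

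Arg2 encodes the mitochondrial arginase, which consumes arginine, and lies on chromosome 12 (chr12:79130777-79156301, plus strand). It had 353 UMIs in 192 WT cells and 304 UMIs in 155 ROBO cells. Of its 657 UMIs, 217 came from the bottom enterocyte-like cluster and 174 from cluster 8. In the bottom enterocyte-like cluster it reached 4.28 UMIs per 10000 in WT and 5.13 in ROBO, and in cluster 8, the Sis-led one, 5.56 in WT and 5.77 in ROBO. In cluster 4, the Cubn-led one of the same class, the level was 0.86 in WT and 0.65 in ROBO. Sis does not mark cells without Lct, since among thinned mature enterocyte-like cells 76 held both and 14 Sis only. The top enterocyte-like level was 0.15 in WT and 0.11 in ROBO, from 2 UMIs each. Arg2 stood among the 10 genes with the highest fold in the bottom enterocyte-like cluster, although it took no part in drawing the clusters. Under 4 other clusterings, which put 444 to 619 cells in the bottom enterocyte-like class, its pooled level, 4.69 here, was 2.10 to 2.61.

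Among thinned cells, 24.7% of bottom enterocyte-like cells (interval 18.3 to 32.1%) and 38.6% of cluster 8 cells (29.6 to 48.2%) had an Arg2 UMI. Immune-like cells gave 5.6% (0.7 to 18.7%), from 2 of 36 cells. The share was 5.8% in cluster 4, 5.4% (3.7 to 7.6%) in transiently amplifying-like, 1.9% (0.9 to 3.6%) in stem cell-like and 1.3% in top enterocyte-like cells. All 4 shares lay within the immune-like interval, which is too wide to tell them apart from free RNA. The transiently amplifying-like interval nevertheless lay above the stem cell-like one. Cytosolic arginase, Arg1, had 5 UMIs in all cells.

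The 3′ end of Arg2 overlaps Vti1b, a vesicle-fusion gene on the opposite strand, and 40.1% of the 75-base words of the last 600 bases of Arg2 also occur in Vti1b or in the antisense gene Gm48780 as annotated. Whether the counting used strand is not given in the sources used here. Vti1b had 538 UMIs, at 1.40 per 10000 in the bottom enterocyte-like cluster, 1.69 in cluster 8 and 1.03 in cluster 4. Its level in cluster 8 was thus 1.64 times that in cluster 4, against 7.5 times for Arg2. The part of Vti1b reads in the Arg2 count was not tested.

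**Figure D1:**
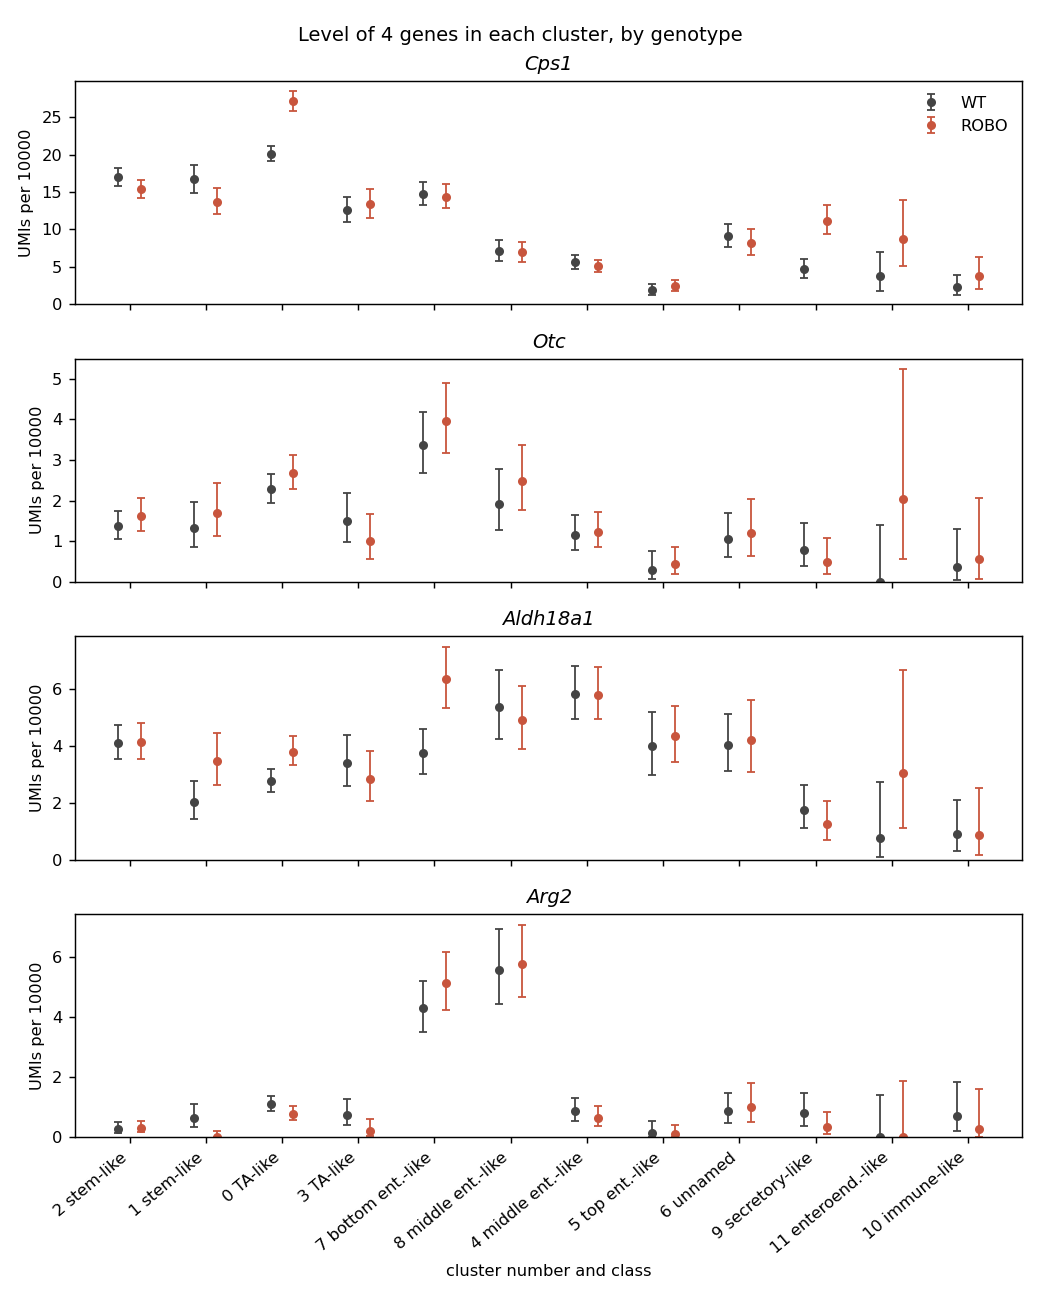
Level of Cps1, Otc, Aldh18a1 and Arg2 (y axis, UMIs per 10000 of the cluster's UMIs) in each of the 12 clusters (x axis, from stem cell-like to top enterocyte-like, then the others), for WT (dark) and ROBO (red), with 95% counting intervals and no replicate error. Arg2 stands at 4.28 or above in clusters 7 and 8 in both genotypes, whereas Cps1 is highest in cluster 0, at 20.2 in WT and 27.1 in ROBO.

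Set against crypt-like cells, mature enterocyte-like cells had a higher Arg2 level in both genotypes, at 1.95 against 0.76 UMIs per 10000 in WT and 1.82 against 0.47 in ROBO. The WT ratio was 1.36 on the log2 scale (interval 0.96 to 1.75) and the ROBO ratio 1.96 (1.5 to 2.44). Under 4 other clusterings the pooled ratio, 1.59 here, was 2.60 to 2.73. The higher Arg2 level stood mainly in cluster 8 and not in mature enterocyte-like cells at large. Among thinned cells, 38.6% of cluster 8, 5.8% of cluster 4 and 1.3% of top enterocyte-like cells had an Arg2 UMI, against 3.8% of crypt-like cells. Cps1 was lower in mature enterocyte-like cells, at 5.10 against 17.9 in WT and 4.79 against 20.2 in ROBO. Its log2 ratios were -1.81 (-2.0 to -1.63) and -2.08 (-2.25 to -1.90). For Otc the WT value was -0.64 (-1.06 to -0.24) and the ROBO value -0.62 (-1.0 to -0.26), with a pooled ratio of -0.62 that was -0.29 to -0.15 under the same 4 clusterings. For Aldh18a1 they were 0.74 (0.52 to 0.95) and 0.45 (0.25 to 0.66). In pooled cells, 1 of the 4 genes with enough UMIs was at least 2-fold higher (Arg2) and 1 at least 2-fold lower (Cps1). Among all 8486 genes with enough UMIs, 11.1% were at least 2-fold higher and 30.6% at least 2-fold lower, and the median log2 ratio was -0.44. With so wide a background the counts say nothing particular of these genes, and what stands is each gene's own ratio.

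The list of neighbouring pathway genes placed these ratios. All 50 genes of the list were in the matrices, 2 of them, Amd1 and Nos1, at 0, and 35 had enough UMIs. Of the 35, 10 were at least 2-fold higher in mature enterocyte-like cells and 11 at least 2-fold lower, with a median log2 ratio of 0.11. The shares among all genes were 11.1% and 30.6%, so the count of lower genes lies near the background. The higher ones included Slc7a7 (log2 ratio 2.23, 2.01 to 2.44), the basolateral carrier of cationic amino acids, and Slc7a9 (1.90) with its partner Slc3a1 (2.53), which take them up from the lumen. Slc25a22, a mitochondrial glutamate carrier, was also higher (1.53, 1.18 to 1.88), as were Gpt, an alanine aminotransferase (3.59), and Sat1, which acetylates polyamines (1.15).

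The lower ones included Odc1 (-1.23), Srm (-2.74) and Sms (-2.85), which make polyamines from ornithine, Cad (-3.41), which makes carbamoyl phosphate for pyrimidines in the cytosol, and Slc7a1 (-2.22), an arginine importer. Genes next to the citrulline steps differed little in this ratio, which pools classes that differ. Nags, which makes the activator of the enzyme that Cps1 encodes, had a log2 ratio of 0.37 (-0.01 to 0.74). For Slc25a15, the mitochondrial ornithine carrier, it was 0.39 (0.19 to 0.59), and for Oat, ornithine aminotransferase, -0.37 (-0.42 to -0.32). By class, Slc25a15 was at 4.56 UMIs per 10000 in bottom and 1.17 in top enterocyte-like cells, against 2.05 in crypt-like cells. Nags was at 1.15, 0.41 and 0.61 in the same order, and Oat at 39.5, 18.7 and 42.7. The Slc7a7 transcript overlaps Oxa1l and that of Nags overlaps Gm11586 on the opposite strand, with the same open question of strand as for Arg2.

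**Figure D2:**
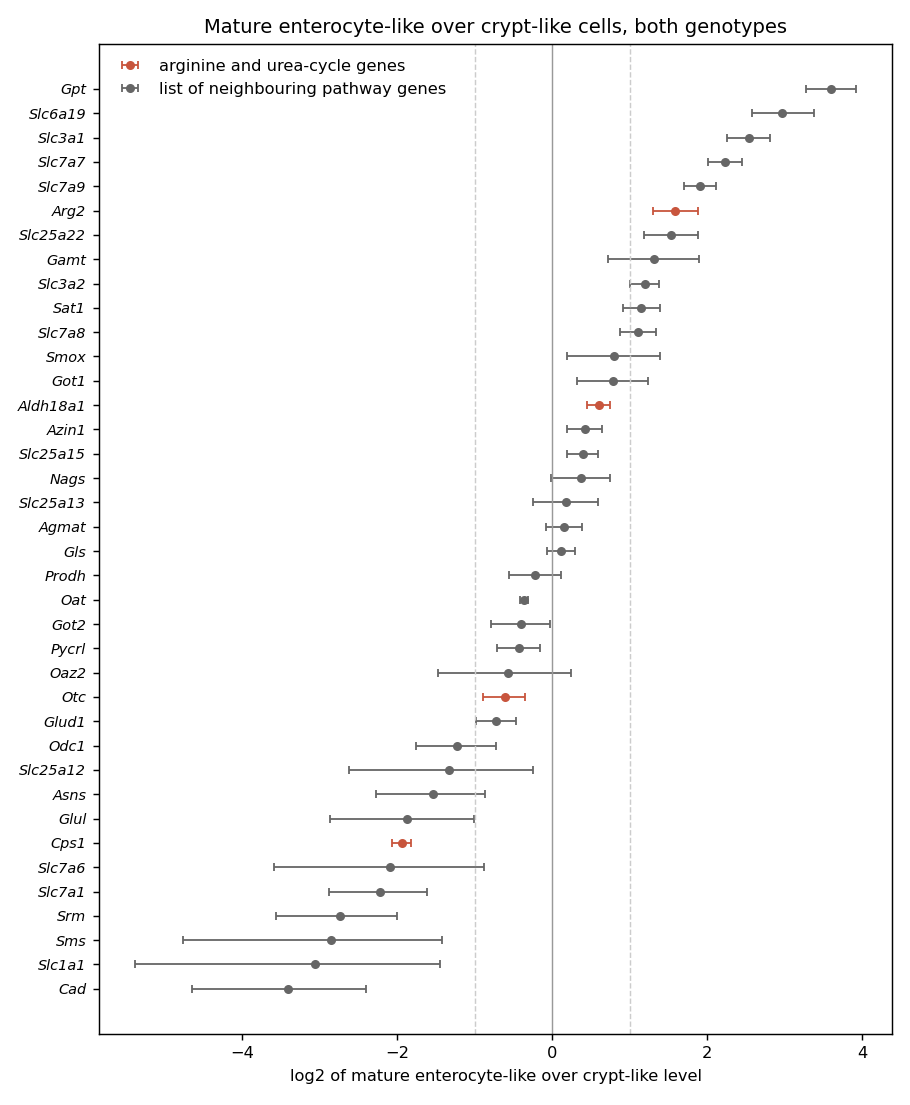
Log2 ratio of the level in mature enterocyte-like over crypt-like cells (x axis) for the 4 arginine and urea-cycle genes with at least 50 UMIs (red) and 34 of the 35 pathway genes with as many (grey), both genotypes pooled, with 95% counting intervals; dashed lines mark 2-fold. Arg2 lies among the higher genes at 1.59, Aldh18a1 at 0.60, Otc at -0.62 and Cps1 among the lower genes at -1.94.

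The question of suckling-type against weaning-type cells was taken up first between the middle enterocyte-like clusters. From cluster 4 to cluster 8, Arg2 was higher by 2.69 on the log2 scale (interval 2.0 to 3.42) among WT cells and by 3.15 (2.41 to 3.96) among ROBO cells. Otc was higher by less, at 0.72 (-0.07 to 1.51) among WT cells and 1.01 (0.31 to 1.71) in ROBO. For Cps1 the values were 0.33 (-0.05 to 0.70) and 0.45 (0.08 to 0.82), and for Aldh18a1 -0.12 (-0.53 to 0.28) and -0.24 (-0.65 to 0.16). In pooled cells, Arg2 was past 2-fold higher and none of the other 3 genes was past 2-fold in either direction. Of 3208 genes with enough UMIs, 6.89% were at least 2-fold higher in cluster 8 and 8.04% at least 2-fold lower. Of 21 pathway genes with enough UMIs, 3 were higher (Glud1, Got1 and Azin1, at 1.78, 1.30 and 1.80) and 3 lower (Slc25a22, Slc7a9 and Slc3a1, at -1.59, -1.0 and -1.03).

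Single cells of both clusters and of the top enterocyte-like cluster were then sorted by their Lct and Sis UMIs. Thinned to 912 UMIs, these were 494 cells, 340 middle and 154 top enterocyte-like. The top enterocyte-like cells, low in Arg2, Cps1 and Otc, were not set apart in this sorting. Of these, 350 had Lct only, 76 had both, 14 had Sis only and 54 had neither. The Arg2 level was 0.85 UMIs per 10000 (interval 0.56 to 1.23) with Lct only, 4.04 (2.68 to 5.84) with both and 6.27 (2.71 to 12.3) with Sis only. In WT these levels were 1.14, 4.39 and 7.31, and in ROBO 0.56, 3.74 and 5.98. Cells with Sis, alone or beside Lct, thus held more Arg2 than cells with Lct only in both genotypes, beyond the counting intervals of the pooled cells. The Sis only values rest on 3 WT and 11 ROBO cells. Among thinned cells of all classes, 79 had Sis only and 533 Lct only. Most cells with Sis only, and the bottom enterocyte-like cluster, thus lay outside this sorting.

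Cps1 was at 4.04 (3.37 to 4.80) with Lct only, 6.49 (4.74 to 8.69) with both and 11.7 (6.58 to 19.4) with Sis only. Otc was at 0.94 (0.63 to 1.34), 2.31 (1.32 to 3.75) and 5.48 (2.20 to 11.3) in the same order. With Sis only, Cps1 and Otc were at 25.6 and 14.6 in 3 WT cells and at 7.97 and 2.99 in 11 ROBO cells. ROBO cells with both held 6.42 and 2.94. Aldh18a1 was at 4.76, 5.34 and 3.13, with overlapping intervals. As a ratio of Sis only over Lct only, the log2 values were 2.89 (1.54 to 4.07) for Arg2, 1.54 (0.66 to 2.31) for Cps1, 2.54 (1.11 to 3.76) for Otc and -0.60 (-2.50 to 0.78) for Aldh18a1. Only Cps1 and Aldh18a1 reached 50 thinned UMIs, and they lay past 1.5-fold, higher and lower. With 14 cells on 1 side, 25.5% of 1217 genes were also at least 1.5-fold higher and 34.3% at least 1.5-fold lower, so those calls are no more than the background.

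**Figure D3:**
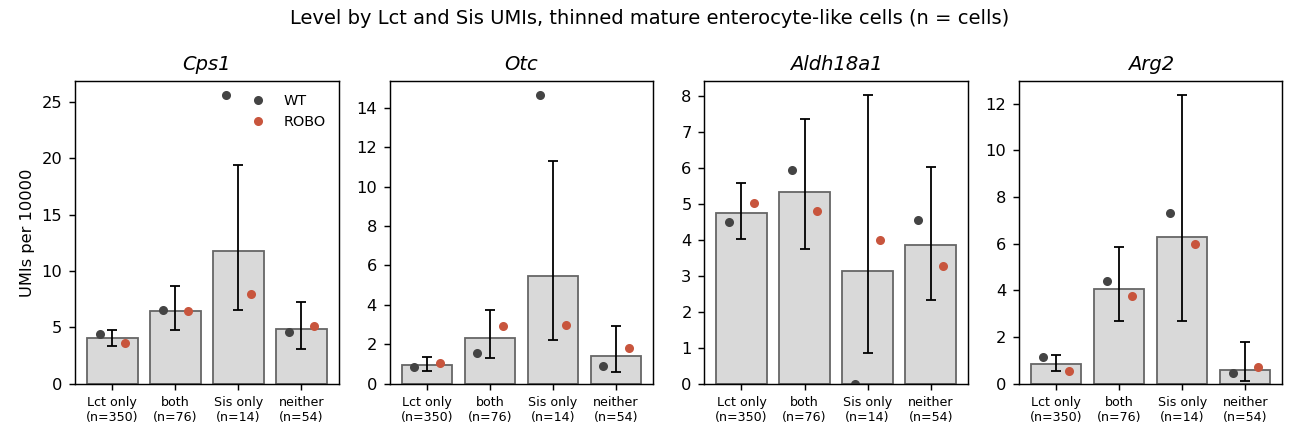
Level of 4 genes (y axis, UMIs per 10000) in thinned mature enterocyte-like cells grouped by whether they held a UMI of Lct, of Sis, of both or of neither (x axis, with the number of cells). Bars give pooled cells with 95% counting intervals, dots WT (dark, 3 cells with Sis only) and ROBO (red, 11 cells with Sis only), and the Arg2 bars run from 0.85 with Lct only to 6.27 with Sis only.

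Detection in the same cell counts the same thinned cells in another way, so for Lct and Sis it adds no separate evidence. Of 494 thinned mature enterocyte-like cells, 59 had an Arg2 UMI and 90 a Sis UMI, and 33 had both, where the product of the separate shares gives 10.7. In WT the count was 16 against 5.01, and in ROBO 17 against 5.62. Arg2 and Lct were found together in 49 cells, against a product of 50.9. Arg2 met Otc in 15 cells against 6.33, and Cps1 in 23 against 18.5. Sis and Otc were thus found with Arg2 more often than the product of shares over these mixed clusters. The product takes no account of the clusters, which differed in Arg2, Sis and Otc. An Otc UMI was found in 17.5% of cluster 8, 12.4% of cluster 4 and 3.2% of top enterocyte-like cells. Pairing within a cluster was not tested. For Lct the comparison says little, since 426 of the 494 cells had a Lct UMI and left little room above the product.

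Over the 12 clusters the levels of the 4 genes were also compared in shape, as Pearson correlations of log2 levels given with no test, since the clusters share libraries and differ in depth. Cps1 and Otc ran together most (r = 0.80), Arg2 and Cps1 least closely of the pairs with Arg2 (r = 0.29), and Cps1 and Aldh18a1 at r = 0.27. Of all genes with at least 200 UMIs, the ones most like Arg2 were Adh6a (r = 0.94), Acot11, Maoa, Letm1 and Ugt2b34. Those most like Cps1 were Ppp1r1b (r = 0.98), Adsl, Hint1, Cluh and Aldh1b1. Otc was closest to Atp5j (r = 0.97), Cox7a2, Mgst1, Sdhc and Fech, and Aldh18a1 to Cryl1 (r = 0.96), Iah1, Hectd3, Gsto1 and Pnp.

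Between genotypes the 4 genes differed little over all cells. Arg2 was at 1.32 UMIs per 10000 in WT and 1.25 in ROBO, or -0.07 as log2 of ROBO over WT (interval -0.30 to 0.15). Cps1 was at 13.4 and 14.4 (0.11, 0.04 to 0.17), Otc at 1.67 and 1.89 (0.18, -0.01 to 0.37), and Aldh18a1 at 3.54 and 4.19 (0.24, 0.11 to 0.37). None of the 4 lay past 1.5-fold, where 2.38% of 9071 genes were that much higher in ROBO and 2.77% that much lower. Within mature enterocyte-like cells the log2 ratios were -0.09 (-0.49 to 0.30) for Arg2, -0.09 (-0.33 to 0.15) for Cps1, 0.20 (-0.30 to 0.69) for Otc and -0.03 (-0.27 to 0.20) for Aldh18a1. Again none lay past 1.5-fold, beside 3.96% of 4036 genes higher and 4.76% lower, and the counting intervals alone leave room for log2 differences of up to 0.69. Of the pathway list, 1 of 35 genes was past 1.5-fold higher over all cells (Slc7a6, 0.61) and 1 lower (Slc25a12, -0.83), the latter a mitochondrial aspartate and glutamate carrier.

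Larger differences stood in single classes, whose ratios were taken under the clustering described above only. Arg2 in transiently amplifying-like cells was at 1.03 UMIs per 10000 in WT and 0.67 in ROBO. As log2 of ROBO over WT this was -0.63 (-1.16 to -0.11), and -0.62 without the 5 cells per genotype highest in Arg2. Thinned to 912 UMIs, 20 of 284 WT and 10 of 272 ROBO cells had an Arg2 UMI. Both shares, 7.0% and 3.7%, lay within the immune-like interval (0.7 to 18.7%), which is too wide to tell them apart from free RNA. The share of all genes past 1.5-fold was not taken in that class. In bottom enterocyte-like cells Aldh18a1 was at 3.74 UMIs per 10000 in WT against 6.35 in ROBO, which is 0.76 as log2 of ROBO over WT (0.37 to 1.16), and a UMI was found in 51.6% of 93 WT and 76.8% of 82 ROBO cells. Thinned to 912 UMIs, 25 of 80 WT and 41 of 82 ROBO cells had one, and without the 5 cells of each genotype that held the most Aldh18a1 the log2 ratio was 0.87. The unthinned median was 2191 UMIs in WT and 2608 in ROBO cells of the class. Arg2, Cps1 and Otc in the same cells gave 0.26 (-0.14 to 0.66), -0.04 (-0.26 to 0.18) and 0.23 (-0.22 to 0.69). Thus 1 of 4 genes was past 1.5-fold there, higher in ROBO, beside 7.51% of 1972 genes higher and 9.69% lower. Of 14 pathway genes with enough UMIs there, Sat1 was past 1.5-fold higher (0.86, 0.22 to 1.52) and Prodh, which breaks down proline, past it lower (-1.15, -2.12 to -0.24).

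Cps1 differed between genotypes in opposite directions by class, though by little in stem cell-like cells. It was higher in ROBO in secretory-like cells, at 11.2 against 4.67 UMIs per 10000 (log2 1.26, interval 0.81 to 1.73), where it was the only one of the 6 genes with enough UMIs. There 7.91% of 784 genes were at least 1.5-fold higher and 12% at least 1.5-fold lower. In transiently amplifying-like cells the log2 ratio was 0.38 (0.29 to 0.48), and in stem cell-like cells -0.18 (-0.31 to -0.05). Thinned to 912 UMIs, 180 of 246 WT and 159 of 225 ROBO stem cell-like cells had a Cps1 UMI. These shares, 73.2% (67.2 to 78.6%) and 70.7% (64.2 to 76.5%), had overlapping intervals. The transiently amplifying-like difference stood in cluster 0, at 0.43 (0.32 to 0.53), while cluster 3 gave 0.09 (-0.20 to 0.37). Unthinned, 44.4% of 63 WT and 52.4% of 63 ROBO secretory-like cells had a Cps1 UMI. Thinned to 912 UMIs, 14 of 41 WT and 26 of 49 ROBO cells had one. Oat, 1 of 2 pathway genes with enough UMIs in secretory-like cells, was at 12.4 in WT and 19.7 in ROBO (0.67, 0.37 to 0.97). With 1 pooled sample per genotype, a difference between mice or labelled samples cannot be told apart from genotype.

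**Figure D4:**
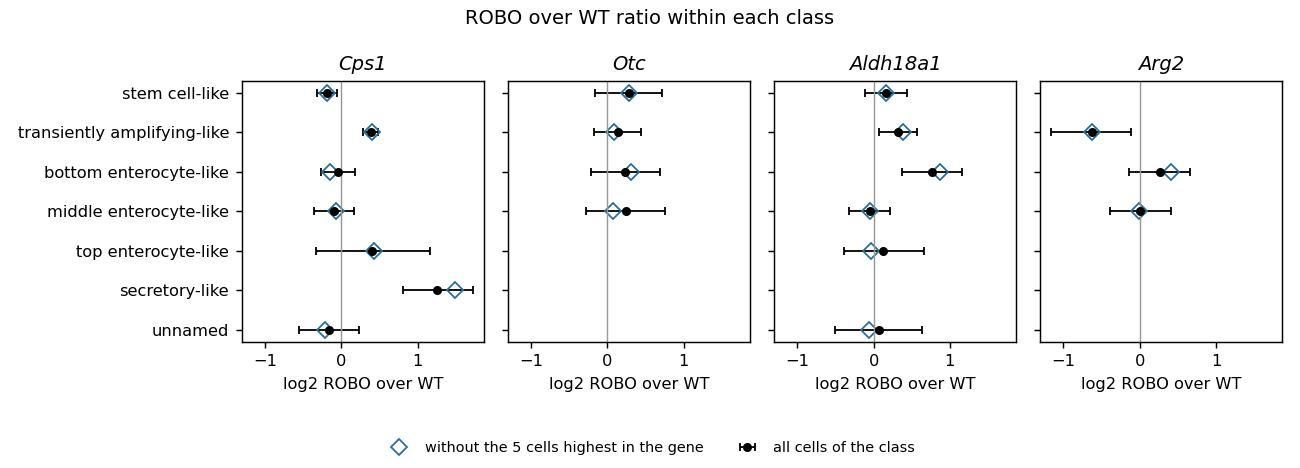
Log2 ratio of ROBO over WT (x axis) within each class (y axis) for 4 genes, shown where the class held at least 50 UMIs of the gene. Dots with bars are all cells with 95% counting intervals and diamonds leave out the 5 cells of each genotype highest in the gene; Cps1 lies at -0.18 in stem cell-like, 0.38 in transiently amplifying-like and 1.26 in secretory-like cells.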

How the data were processed

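Single cells of crypt isolates were captured on a droplet system with a 3′ UMI kit. The authors built the count tables in BaseSpace Sequence Hub, and the deposited values are raw UMI counts per gene and cell, in 1 matrix per genotype. The submitters' processing notes name mm10 and GRCm38. The aligner, the annotation and the calling of cells are not given in the sources used here. All cells were kept. The methods of the study used Seurat with cell-cycle adjustment, which was followed with Seurat 5.3.0: counts were scaled to 10000 per cell and logged, the S and G2M scores regressed out, and cells clustered on 2000 variable genes with 20 principal components at resolution 0.8, without the 6 genes and the 50 pathway genes. A cluster took the name of the marker list with the highest mean fold among lists with at least 3 markers raised 1.5-fold and found in 10% of its cells, if 1 of these markers was among its 10 leading genes. This scoring dates from after the clustering. The members and gene lists were chosen with earlier results of these data known.

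Levels are summed UMIs of a gene per 10000 UMIs of the cells, with exact Poisson intervals. For shares of cells the intervals are exact (Clopper-Pearson), and for ratios conditional exact, from scipy. Thinning drew 912 UMIs, the lower quartile, per cell and left out 25.0% of cells. Scrublet in scanpy, at an expected rate of 5%, called 6 doublets, which were kept. Named genes were the 6 members, the pathway list and the 5 genes most like each member. Genes at 50 UMIs or more over both groups entered the ratios, and the code was tested on simulated data. Alternatives covered the clustering, doublets, weighting, scaling and thinning. Of the pathway list, 1 gene is counted in the list but not reported here by name.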

Additional observations from a re-analysis of the deposited data

Results flagged for a closer look

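The difference of Cps1 between genotypes ran in opposite directions in different classes, with a log2 ratio of ROBO over WT of -0.18 in stem cell-like, 0.38 in transiently amplifying-like and 1.26 in secretory-like cells, each with a counting interval that leaves out 0. Without the 5 cells of each genotype with the most Cps1 UMIs in a class the values were -0.19, 0.40 and 1.5. The stem cell-like difference was small, and among thinned cells 73.2% of WT and 70.7% of ROBO stem cell-like cells had a Cps1 UMI, with overlapping intervals. The difference between the classes was not tested, since each genotype is 1 pooled sample. These ratios were not run under other clusterings, which moved cells between the stem cell-like and transiently amplifying-like classes.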

How the results depend on the processing

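The cell names carry no sample number, so no replicate was left out. No paired analysis was possible because the replicate numbers in the labels were not tied to cells. The interval of a value here is its counting interval. Of 238 other values for the results that answer a comparison, 199 stayed within it, 37 left it with the same call or with no call, and 2 reversed. The log2 ratios of ROBO over WT in mature enterocyte-like cells and of cluster 8 over cluster 4 stayed within it under every alternative run, with the clusters highest in Sis and in Lct taken from each clustering. Over all cells, equal weight per cell gave -0.0035 for Cps1, and thinning gave -1.19 for Asl, which had 24 UMIs.

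The classes depended on the clustering. The ratios of ROBO over WT within single classes were not run under the other clusterings. At a resolution of 0.5, a resolution of 1.2, 30 principal components and at least 500 genes per cell, the log2 ratio of mature enterocyte-like over crypt-like cells was 2.60, 2.73, 2.62 and 2.68 for Arg2 and -0.22, -0.29, -0.22 and -0.15 for Otc. For Cps1 it was -1.63 at a resolution of 0.5, -1.62 with 30 components and -1.55 with at least 500 genes. Without ribosomal protein genes and Rn45s in the scaling it was -2.12 for Cps1 and 0.42 for Aldh18a1. In the same 4 clusterings the bottom enterocyte-like level was 2.10, 2.61, 2.14 and 2.14 for Arg2 and 2.78, 3.02, 2.80 and 2.78 for Otc, and equal weight gave 4.04 for Arg2. The transiently amplifying-like Cps1 level was 23.1 without cell-cycle regression, 13.8 at a resolution of 1.2, 14.0 with 30 components, 16.7 with at least 500 genes, 19.7 with equal weight, 25.2 without ribosomal genes and 18.4 after subtraction of the immune-like level. The resolution of 0.5 gave no such class and 30 components no enteroendocrine-like class. The middle enterocyte-like Aldh18a1 level was 4.94 with equal weight and 4.68 after that subtraction.

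Sis only over Lct only reversed for Aldh18a1, at 0.46 with cells thinned to 1550 UMIs and 0.051 with the weaning list against the suckling list. In all cells the ratio of co-detection to the product of shares was 1.41 for Arg2 and Lct, 0.65 for Cps1 and Lct, 1.01 for Cps1 and Sis and 1.28 for Aldh18a1 and Lct. The causes of these moves were not tested. The subtraction, the dropped cells within classes, the shallow crypt-like clusters and the alternatives for clusters 8 and 4 were chosen after seeing the data. Shares of genes past 1.5-fold depended on the minimum, at 4.60% higher and 4.86% lower in ROBO over all cells with 20 UMIs and 0.47% and 1.19% with 200.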
